A study of Homo sapiens with 15 samples.

Results

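Distal chromosome 1p, from the end of the short arm through bands 1p36 and 1p35, was followed through 54 listed genes, out of 55773 genes in the deposited table. The members were chosen by name, from NOC2L nearest the chromosome end to GMEB1 nearest the centromere, because earlier readings of these same values had shown neighbouring genes of 1p moving together with ZC3H7A and after depletion of both proteins. All 54 names were found in the table, all were placed on chromosome 1 by the GENCODE 29 annotation of GRCh38, and all 54 passed the filter on low values. Since the differences between groups chose the genes, those differences are given as descriptions, without a test of the list.

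The samples were bulk poly(A) RNA-seq libraries of HEK293, an established human embryonic kidney line, in 5 groups of 3. For overexpression, the 3 groups were Flp-In T-REx 293 cells given Flag/HA alone (control), tagged ZC3H7A or tagged ZC3H7B, all under doxycycline (1 µg/mL over 24 h), which switches such transgenes on. In the depletion experiment, cells labelled Parental were wild type with a control shRNA, and cells labelled DD were ZC3H7A knockout with shRNA to ZC3H7B. Both were selected with puromycin at 5 µg/mL and released from it 2 passages before collection. The 2 experiments used different library protocols, so values were compared only within each. The labels call the overexpression replicates independent, do not say this for Parental and DD, and do not say whether a line was 1 clone or how many lines carried each transgene. Standard errors therefore measure the spread between libraries and not between lines. In bulk RNA, fewer cells with a transcript and less of it per cell cannot be told apart.

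Depth ran from 45.5 to 57.6 M reads per library for overexpression and from 12.2 to 15.5 M for depletion. The normalized count of ZC3H7A, a CCCH zinc-finger protein that binds RNA, was 3179.6, 3374 and 3223 in the controls and 10546, 10131 and 12898 in the libraries labelled ZC3H7A. Libraries labelled ZC3H7B held 28082, 26712 and 26632 of that gene, against 5951, 5818 and 6044 for the controls. Under depletion, the paralog ZC3H7B was 5948, 6484 and 6958 in Parental and 999.8, 1168 and 1083 in the libraries labelled DD, while ZC3H7A was 1585, 1528 and 1684 in Parental and 1639.9, 1561 and 1771 in DD, so the knockout is not visible in gene-level reads and DD below means the libraries labelled so. Of 6 genes expected in HEK293 (KRT8, KRT18, VIM, NEFL, NEFM and PAX2), 5 had a mean of at least 100, all but NEFM. The summed level of 3 leukocyte markers stayed between 4.74 and 35.4, that of 2 endothelial markers between 4.93 and 13.3 and that of 4 fibroblast markers, mostly COL1A1, between 144 and 304. The fibroblast sum was lower in the controls (144 to 180.4) than with ZC3H7A (224 to 254) or ZC3H7B (261 to 304), and the endothelial sum lower in Parental (4.93 to 6.66) than in DD (11.8 to 13.3), with CDH5 at most 2.37, DCN at most 3.17 and LUM at most 7.44 in any library, and their part in the results was not tested.

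Genes that sit side by side on a chromosome can answer to separate regulators or share them, and which holds here was not tested. The RNA of most genes follows the number of DNA copies that a cell holds, and cultured lines such as HEK293 carry rearranged chromosomes that differ between sublines. The listed genes have no function in common: they encode chromatin regulators, RNA-binding proteins, kinases and G proteins, ubiquitin enzymes, cytoskeletal proteins and metabolic enzymes. The files hold RNA only. DNA copy number was not measured, and its part in any value below was not tested.

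Most of the listed genes were lower with ZC3H7A and in DD, and most were higher with ZC3H7B. The listing describes a shift with ZC3H7A and in DD that is absent with ZC3H7B. The rise with ZC3H7B did not stop at GMEB1. Against the control, the ZC3H7B median was 0.22 over the 12 genes before GMEB1 and 0.29 over the 12 after it (means of at least 100). Over the whole short arm beyond GMEB1 it was -0.12. Whether the stretch itself shifted with ZC3H7B was not tested. The size of the ZC3H7B shift rests on the processing: the median of the listed genes fell from 0.22 to 0.12 after taking out the trend with the A+T share of transcripts, and that of the unlisted genes of the same stretch from 0.11 to -0.06. The median log2 difference of the 54 genes was -0.28 for ZC3H7A against the control, beside -0.07 over all 17673 tested genes. For ZC3H7B against the control the median was 0.22, beside -0.06 over all tested genes. These comparisons share the control libraries. Values are on the log2 scale of normalized count plus 1, which understates differences of low genes, and a value after ± is the limma standard error over 3 libraries a group. Set directly against each other, ZC3H7A stood below ZC3H7B with a median of -0.52 (0.697 times the ZC3H7B level), beside 0.0083 over all tested genes. For DD against Parental, which shares no library with the others, the median was -0.46 (0.726 times the Parental level), beside 0.01 over all 18494 tested genes. The quartiles of the listed genes were -0.61 and -0.45 for ZC3H7A against ZC3H7B and -0.66 and -0.34 for DD against Parental. They lay further apart for ZC3H7A against the control, at -0.49 and -0.07.

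A gene was called when its two-sided limma p, adjusted by Benjamini and Hochberg over every tested gene, was under 0.05. The calls describe the members without adding support, since the same comparisons chose them. With ZC3H7A against the control, 38 members were called lower, 8 higher and 8 neither, where 41.2% of all tested genes were called lower and 34.7% higher. Those called higher were NOC2L, SKI, PANK4, ACOT7, PGD, AHDC1, RCC1 and GMEB1, of which NOC2L, SKI, PANK4, AHDC1 and RCC1 turned below 0 once a trend with transcript base content was removed. The count of 8 fell to 4 without control replicate 3 or without ZC3H7A replicate 1, and to 3 with all 15 libraries in 1 fit. With ZC3H7B against the control, 36 were called higher, 8 lower and 10 neither, where 32% of all tested genes were called higher and 37.6% lower. Between ZC3H7A and ZC3H7B, 52 were called lower, beside 20.4% of all tested genes. The exceptions there were GMEB1, called higher (beside 23.9% of all tested genes), and NBL1, a secreted BMP antagonist, which was called neither way with a log2 difference of -0.18 ± 0.0786. In DD against Parental, 45 were called lower, GMEB1 was again the 1 gene called higher, and 8 were neither, where 14.8% of all tested genes were called lower and 14.7% higher.

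The shift was present in every library. The median of the listed genes relative to the control mean, as a log2 difference, was -0.0085, 0.01 and 0.0031 in the control libraries themselves, -0.28, -0.26 and -0.35 with ZC3H7A and 0.24, 0.23 and 0.19 with ZC3H7B. The 3 groups did not overlap, with ZC3H7A below and ZC3H7B above the controls. Relative to the Parental mean it was -0.04, 0.004 and 0.04 in Parental and -0.42, -0.45 and -0.48 in DD, again without overlap. Gene by gene, all 3 DD libraries lay below all 3 Parental libraries in 51 members, beside 21.5% of all tested genes. GMEB1 was the 1 member with all DD libraries above (beside 21.6%). All 3 ZC3H7A libraries lay below all 3 ZC3H7B libraries in 53 members, beside 22.5% of all tested genes, and above them in GMEB1 (beside 26.6%). Against the controls, ZC3H7A libraries were all lower in 39 members (beside 42.2%) and all higher in 6 (beside 35.7%), while ZC3H7B libraries were all higher in 40 (beside 35.3%) and all lower in 8 (beside 41.8%).

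**Figure D1:**
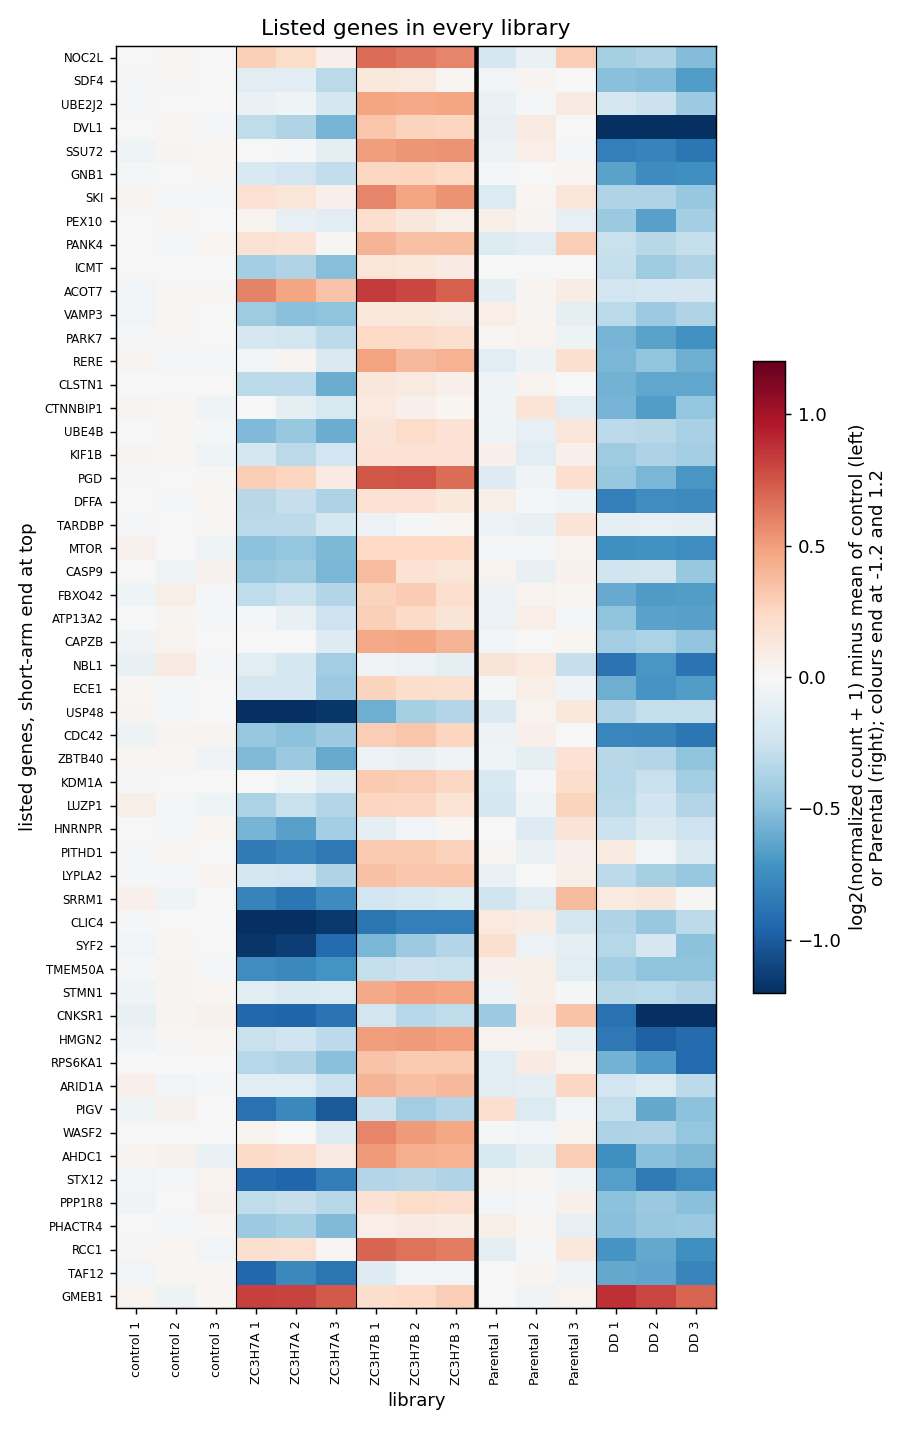
Each row is a listed gene in chromosome order and each column a library. Colour is the log2 of normalized count plus 1, minus the control mean (9 columns left of the thick line) or the Parental mean (6 columns right of it). The ZC3H7A and DD columns are mostly blue, the ZC3H7B columns mostly red, and the bottom row, GMEB1, is red in both ZC3H7A and DD.

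The stretch can also be read as a share of sequencing reads, which needs no choice of genes within it. Its ends are still those of the list, which these same differences chose, and the listed genes are counted in it. They alone took a mean of 0.86% of the reads in the controls. The share is thus a further description and adds no independent support. All 553 genes of the table placed from NOC2L to GMEB1 took 2.63, 2.63 and 2.62% of the reads in the controls, 1.99, 2.00 and 1.90% with ZC3H7A and 2.92, 2.89 and 2.86% with ZC3H7B. The mean share with ZC3H7A was 0.747 times that of the controls and 0.679 times that with ZC3H7B, and the 3 groups were separate. In the depletion experiment the share was 2.28, 2.33 and 2.48% in Parental and 1.71, 1.73 and 1.70% in DD, a ratio of means of 0.724.

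Along chromosome 1, the lower level stopped at GMEB1 on the side of the centromere. Beyond NOC2L, toward the end of the short arm, few genes could be read, and they were mixed. Leaving aside copies of mitochondrial sequence, LINC01128 was there at -0.35 for ZC3H7A against ZC3H7B and -1.01 for DD against Parental. SAMD11 was at -0.05 and -0.15. Within the stretch, the first genes after NOC2L with a mean of at least 100 were KLHL17, HES4, ISG15 and AGRN. KLHL17 was at -0.05 and -0.69, HES4 at -0.62 and -0.77, ISG15 at -1.12 and -0.53, and AGRN at -0.62 and -1.27. Besides the listed genes, 252 other genes of the stretch were tested in the overexpression experiment and 263 in the depletion experiment, out of 499. These genes were not picked by name, but they lie between ends that these same differences chose, so they add no independent support. Their median log2 difference was -0.33 for ZC3H7A against the control, 0.11 for ZC3H7B against the control, -0.53 for ZC3H7A against ZC3H7B and -0.49 for DD against Parental, close to those of the listed genes in the last 2 comparisons. The value for ZC3H7B turned to -0.06 with the A+T trend removed and was 0.0027 with no filter on low values, and that for ZC3H7A against the control moved to -0.58 with the trend removed. Of the unlisted genes, 198 were called lower and 10 higher between ZC3H7A and ZC3H7B, beside 20.4% and 23.9% of all tested genes. In DD, 165 were called lower and 5 higher, beside 14.8% and 14.7%. Against the control, 180 were called lower and 31 higher with ZC3H7A, beside 41.2% and 34.7%. With ZC3H7B, 59 were called lower and 114 higher, beside 37.6% and 32%. The rest of the short arm had medians of 0.02 for ZC3H7A against ZC3H7B and 0.08 for DD against Parental. On the long arm they were 0.02 and 0.04.

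**Figure D2:**
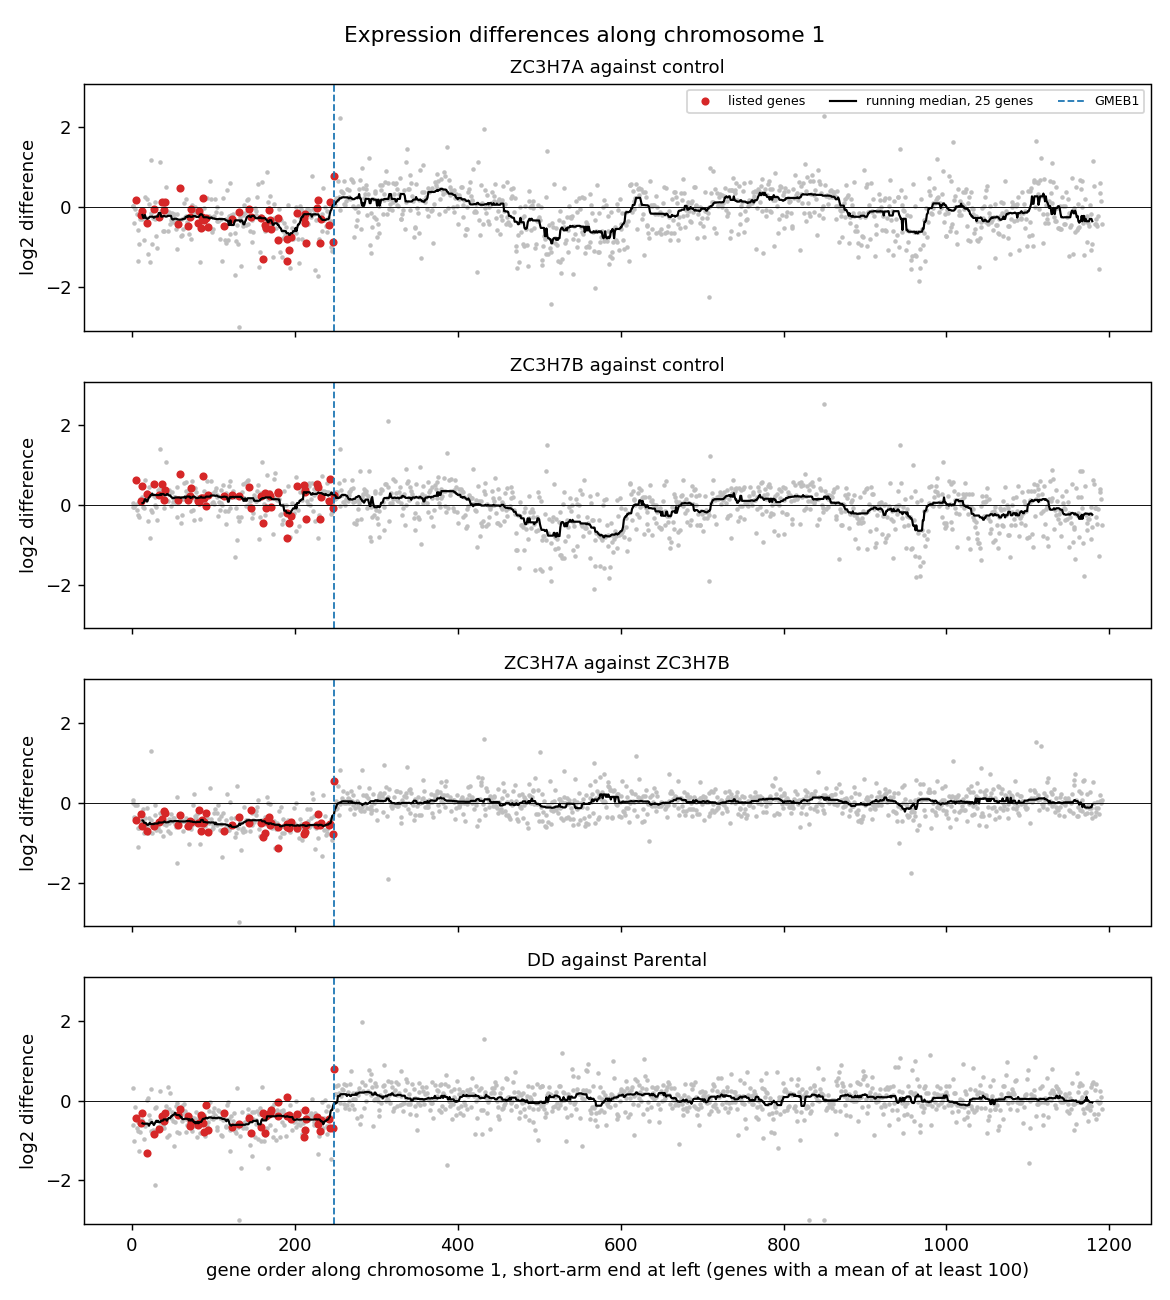
Each point is a gene of chromosome 1 with a mean of at least 100, in chromosome order from the short-arm end (left), and the vertical axis is its log2 difference (points beyond -3 or 3 are drawn at that value). Red points are the listed genes, the black line is a running median of 25 genes and the dashed line marks GMEB1. In the 2 lower panels the running median stays near -0.5 up to GMEB1 and near 0 after it.

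The edge fell between the same neighbouring genes in both experiments. For each place along chromosome 1 with 20 genes of a mean of at least 100 on each side, the medians before and after were compared. The largest step for ZC3H7A against ZC3H7B lay between TAF12 and GMEB1, from -0.58 to 0.05. The largest step for DD against Parental also lay between TAF12 and GMEB1, from -0.65 to 0.17. More than 20 genes away from it, the largest other step was 0.31 in size for ZC3H7A against ZC3H7B and 0.36 for DD against Parental. Against the control, neither overexpression had its largest step here: it lay on the long arm, between KIF14 and DDX59 for ZC3H7A and between CAMSAP2 and C1orf106 for ZC3H7B.

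TAF12, a subunit of the general transcription factor TFIID and of the SAGA complex, was the last gene on the lower side. Its normalized counts were 638, 663 and 661 in the controls, 339, 383 and 356 with ZC3H7A, and 587, 637 and 640.5 under ZC3H7B. Under depletion they were 646, 658 and 625 in Parental and 418, 415 and 371 in DD. ZC3H7A and DD were each low in all 3 libraries without overlap, and the ZC3H7B libraries overlapped the controls (log2 differences -0.79 ± 0.0605 for ZC3H7A against ZC3H7B and -0.68 ± 0.0957 for DD against Parental). GMEB1, a transcription factor that binds glucocorticoid modulatory elements, was the next gene with a mean of at least 100 and went the other way. Its counts were 882, 824 and 871 in the controls, 1512, 1506 and 1433 with ZC3H7A, and 995, 1014 and 1055 under ZC3H7B. They were 1037, 1008 and 1067 in Parental and 1905, 1810.0 and 1687 in DD. The ZC3H7A and DD libraries were the highest of their experiments without overlap (log2 differences 0.79 ± 0.0481 for ZC3H7A against the control, 0.54 ± 0.0481 for ZC3H7A against ZC3H7B and 0.79 ± 0.0760 for DD against Parental), whereas the other 53 members were all below 0 for ZC3H7A against ZC3H7B. YTHDF2, which reads m6A marks on RNA and lies just beyond GMEB1, was at 3909, 3772 and 3743 with ZC3H7A and 4076, 4091 and 3988 with ZC3H7B, and at 3461, 3419 and 4259 in Parental and 4209.6, 4056 and 4135 in DD. Its Parental and DD libraries overlapped, with log2 differences of -0.09 ± 0.0371 and 0.16 ± 0.0847.

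**Figure D3:**
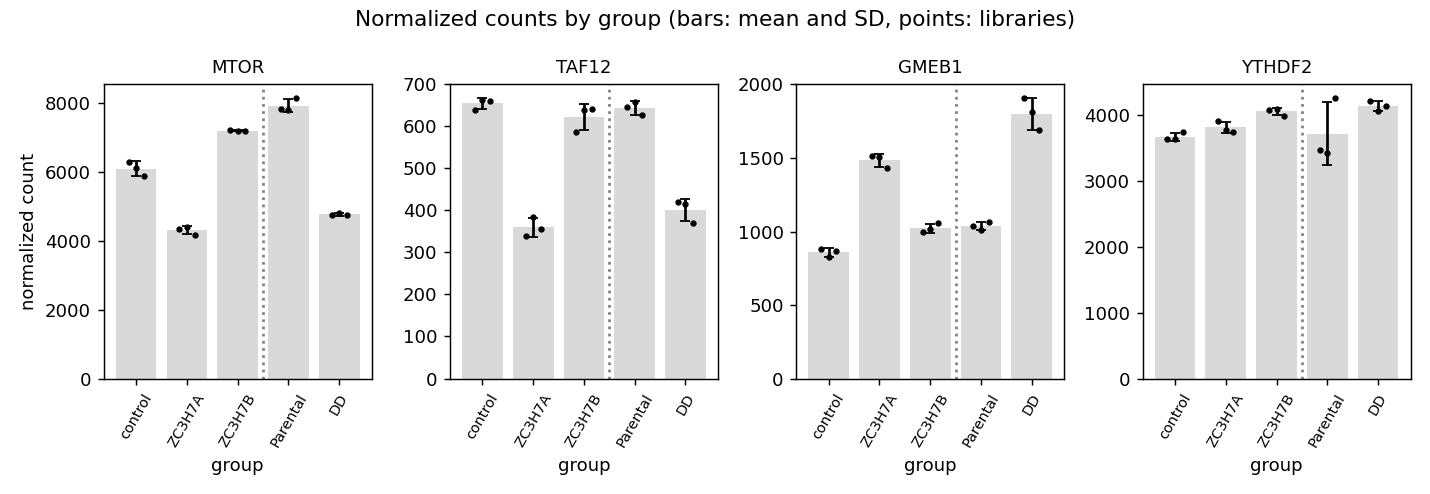
Bars are the mean normalized count of 3 libraries with the SD, points are libraries, and the dotted line parts the overexpression from the depletion experiment. MTOR and TAF12 are low with ZC3H7A and in DD, GMEB1 is high in both, and YTHDF2 lies between 3419 and 4259 in all 15 libraries.

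The pattern held over the neighbours on each side. Of the last 12 genes before GMEB1 averaging at least 100 over all libraries, the pseudogene SPCS2P4 reached that mean through the depletion libraries alone: it was between 6.88 and 14.7 in the overexpression libraries, which overlapped (-0.33 ± 0.263 for ZC3H7A against ZC3H7B), and at 0.02 ± 0.103 in DD. The other 11 were all below 0 in both comparisons, from -0.94 in SNHG12 to -0.41 in TRNAU1AP for ZC3H7A against ZC3H7B and from -1.46 in SNHG3 to -0.13 in MED18 for DD against Parental. SNHG3 and SNHG12 are host genes of small nucleolar RNAs, and SNHG3 overlaps the listed gene RCC1, so reads of the pair may not be fully told apart. The 12 genes after GMEB1 had a median of 0.03 for ZC3H7A against ZC3H7B, with 5 below 0, and of 0.17 for DD against Parental, with 3 below 0.

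**Figure D4:**
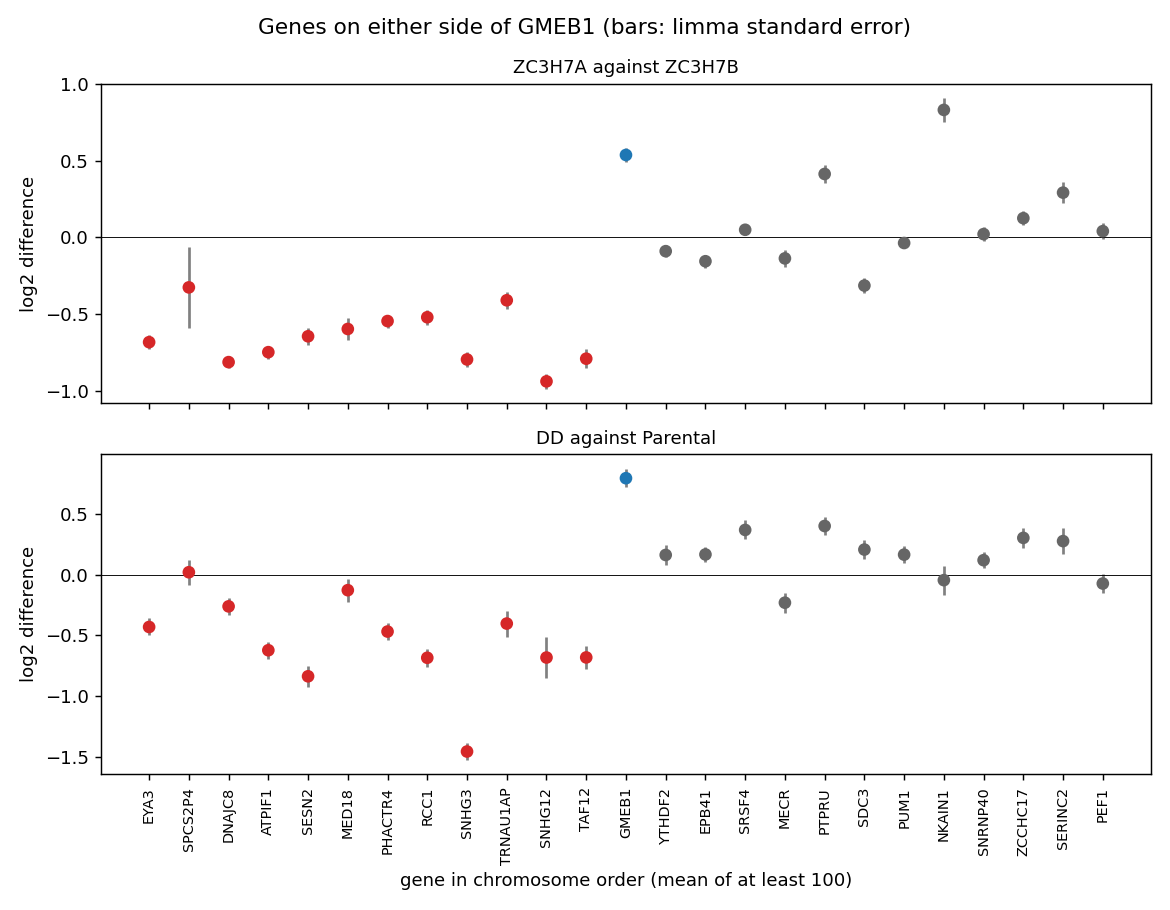
Points are log2 differences of the 12 genes before GMEB1 (red), GMEB1 (blue) and the 12 genes after it (grey), in chromosome order, with the limma standard error as bars. In both panels the red points lie below 0 except SPCS2P4 in DD against Parental, and GMEB1 lies above TAF12 and YTHDF2.

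The promoters of the 2 genes at the edge are shown because these neighbours moved in opposite directions. Each is the 250 bases before the gene start, from RefSeq on GRCh38.p14, 5′ to 3′ on the strand of the gene, at chr1:28643068-28643317 (minus strand) for TAF12 and chr1:28668534-28668783 (plus strand) for GMEB1. Capitals mark the letters CCGGAAG, the core of sites bound by ETS transcription factors.
TAF12 promoter: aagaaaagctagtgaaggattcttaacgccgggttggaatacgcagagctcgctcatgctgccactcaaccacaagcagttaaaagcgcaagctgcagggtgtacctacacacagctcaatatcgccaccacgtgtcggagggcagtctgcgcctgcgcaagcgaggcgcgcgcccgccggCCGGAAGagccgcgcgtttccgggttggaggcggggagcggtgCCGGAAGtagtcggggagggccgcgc
GMEB1 promoter: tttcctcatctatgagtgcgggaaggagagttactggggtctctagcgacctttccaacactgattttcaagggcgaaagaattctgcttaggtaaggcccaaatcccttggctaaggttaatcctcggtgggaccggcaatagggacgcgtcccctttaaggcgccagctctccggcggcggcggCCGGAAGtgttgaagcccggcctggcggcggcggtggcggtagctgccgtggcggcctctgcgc
Searched on both strands, CCGGAAG occurred 2 times for TAF12 and 1 time for GMEB1, and 8.81% of 27305 promoters of the same length hold it. This motif was searched after the sequences had been read. Neither stretch held a GC box, searched as GGGCGG on both strands and present in 42.3% of all promoters. Neither held a CCAAT box on either strand, searched by those letters, which 33.0% of promoters hold. Nor was there a TATA box on either strand, searched as TATAAA and present in 11.1% of promoters. Of 49 listed genes with a promoter in the RefSeq table, 39 held the GC box, 19 the CCAAT box, 0 the TATA box and 9 the ETS core. A match of letters is a description and not a bound site.

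Among the listed genes of signalling, all 8 were below 0 in ZC3H7A against the control, in ZC3H7A against ZC3H7B and in DD against Parental. Their medians were -0.40, -0.67 and -0.77. Of these genes, 7 were called lower and 1 neither for ZC3H7A against ZC3H7B, beside 20.4% of all tested genes called lower. For DD against Parental, 8 of 8 were called lower, beside 14.8% of all tested genes. The calls by role describe members that these comparisons chose. MTOR, the kinase that couples nutrients to growth, had normalized counts of 6288, 6097 and 5876 in the controls, 4332, 4402 and 4175 with ZC3H7A, and 7195, 7177 and 7162 under ZC3H7B. Under depletion MTOR was at 7824, 7775 and 8141 in Parental and 4747, 4795 and 4729 in DD. The groups did not overlap in either experiment, and the log2 difference was -0.74 ± 0.0387 for ZC3H7A against ZC3H7B and -0.73 ± 0.0592 for DD against Parental.

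GNB1, the beta subunit of heterotrimeric G proteins, had the most normalized counts of the list, a value not scaled to length. It was at 14783, 15009 and 15062 in the controls, 13198, 12714 and 12155 with ZC3H7A, and 17747, 17848 and 17653 under ZC3H7B. It was at 16059.6, 16377 and 16581 in Parental and 10496, 9662 and 9833 in DD. The order ZC3H7A, control, ZC3H7B held for every library, with log2 differences of -0.24 ± 0.0368 and 0.25 ± 0.0368 against the control and -0.71 ± 0.0619 in DD. DVL1, the Dishevelled scaffold of Wnt signalling, had the second lowest value in DD of the listed genes. Its counts were 3137, 3629 and 3342 in Parental and 1319.9, 1409.7 and 1359 in DD, a log2 difference of -1.30 ± 0.0745, and they were 3159, 3218 and 3142 in the controls, 2562, 2476 and 2150.2 with ZC3H7A, and 4001, 3825 and 3787 under ZC3H7B. CNKSR1, a scaffold of Ras signalling, had the fewest normalized counts and the lowest value in DD, with counts of 57.7, 83.8 and 100.2 in Parental and 41.7, 33.2 and 21.1 in DD (log2 difference -1.32 ± 0.308). Its overexpression counts were 148, 160.3 and 162 in the controls, 80.8, 79.8 and 84.1 with ZC3H7A, and 135, 123 and 127 under ZC3H7B, with both overexpressions under the controls. The Wnt inhibitor CTNNBIP1, which binds beta-catenin, was at -0.17 for ZC3H7A against ZC3H7B and -0.56 for DD against Parental, and the ribosomal S6 kinase RPS6KA1 at -0.72 and -0.73.

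The 10 genes of chromatin and transcription had medians of -0.45 for ZC3H7A against ZC3H7B and -0.41 for DD against Parental, with GMEB1 alone above 0 in both. Of these genes, 9 were called lower and 1 higher for ZC3H7A against ZC3H7B, beside 20.4% and 23.9% of all tested genes. For DD against Parental, 8 of 10 were called lower, 1 higher and 1 neither, beside 14.8% lower and 14.7% higher of all tested genes. Against the control their median was -0.06 with ZC3H7A and 0.41 with ZC3H7B. ARID1A, a subunit of the SWI/SNF chromatin remodeller, had counts of 4978, 4663 and 4711 in the controls, 4345, 4352 and 4008 with ZC3H7A, and 6338, 6157 and 6249.6 under ZC3H7B. It was at 7185, 7329 and 9392 in Parental and 6726, 7072 and 6372 in DD. The 3 overexpression groups were separate, while the highest DD library was close under the lowest Parental one and the difference was not called (log2 difference -0.24 ± 0.0958). HMGN2, a nucleosome-binding protein, was at 5702, 5926 and 5940.1 in the controls, 4863, 4946 and 4695 with ZC3H7A, and 8266, 8366 and 8225 under ZC3H7B. It was at 16650.2, 16739 and 15280.2 in Parental and 8939.9, 8199.7 and 8539 in DD, the lowest difference in DD after CNKSR1 and DVL1 (-0.92 ± 0.0661). The annotation holds 36 pseudogenes named after HMGN2, so its reads may be split among copies and its level is uncertain. Some other members have such pseudogenes too, for example SSU72 with 8. NOC2L, which inhibits histone acetylation, was at 6603, 6684 and 6603 in the controls, 8089, 7745 and 6911 with ZC3H7A, and 10568, 10289 and 9926 under ZC3H7B. It was at 6894, 7568 and 9809.9 in Parental and 6079, 6214 and 5592 in DD. NOC2L was higher with ZC3H7A than in the controls (0.19 ± 0.0528, which turned to -0.12 with the base-content trend removed), yet below ZC3H7B (-0.44 ± 0.0528), and was lower in DD (-0.43 ± 0.109). The histone demethylase KDM1A was at -0.35 for ZC3H7A against ZC3H7B and -0.34 in DD, the corepressor RERE at -0.49 and -0.54, and the TGF-beta signalling repressor SKI at -0.40 and -0.39.

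Genes of RNA binding and processing had the median closest to 0 in DD among the role groups with 4 or more genes. All 6 were below 0 for ZC3H7A against ZC3H7B, with a median of -0.54, and 5 of 6 for DD against Parental, with a median of -0.29. Of these genes, 6 were called lower for ZC3H7A against ZC3H7B, beside 20.4% of all tested genes. For DD against Parental, 2 of 6 were called lower and 4 neither, beside 14.8% of all tested genes called lower. TARDBP, which encodes the RNA-binding protein TDP-43, was at 8432, 8519 and 8581 in the controls, 6781, 6850.3 and 7359.6 with ZC3H7A, and 8114, 8444 and 8631 under ZC3H7B. It was at 5289, 5224 and 6191 in Parental and 5151, 5172 and 5129 in DD. Its ZC3H7A libraries lay below the others (against the controls the sign turned with the base-content trend removed), and its DD libraries only just below Parental, which was not called (log2 differences -0.26 ± 0.0414 and -0.11 ± 0.0741). HNRNPR, a heterogeneous nuclear ribonucleoprotein, was at 12387, 12343 and 12653 in the controls, 8463, 7946 and 9377 with ZC3H7A, and 11480.2, 12154 and 12635 under ZC3H7B. It was at 7451, 6710.5 and 8309 in Parental and 6258, 6631 and 6264 in DD, without overlap but not called (-0.23 ± 0.0791). SRRM1, a coactivator of splicing, was the 1 member besides GMEB1 above 0 in DD. It was at 5002, 5387 and 7705 in Parental and 6414, 6489 and 5982 in DD, with the DD libraries inside the Parental range (0.09 ± 0.128), and at 6429, 5935 and 6153 in the controls, 3549, 3388 and 3667 with ZC3H7A, and 5283, 5398 and 5501 under ZC3H7B. SYF2, a factor of the spliceosome, was at 1637, 1694 and 1680.3 in the controls, 742, 763 and 872 with ZC3H7A, and 1138, 1234 and 1307 under ZC3H7B. It was at 526, 436 and 423 in Parental and 362, 400.4 and 326 in DD and was not called there (-0.34 ± 0.122). SSU72, a phosphatase of the RNA polymerase II tail, had the lowest DD value of the group, -0.83 ± 0.0651.

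The 12 genes of cytoskeleton, adhesion and transport had the smallest spread in ZC3H7A against ZC3H7B of the role groups, with an SD over genes of 0.0878. All 12 were below 0 with ZC3H7A against the control (STMN1 turned above 0 with the base-content trend removed, and CAPZB and WASF2 with DESeq2), with ZC3H7A against ZC3H7B and in DD. Against ZC3H7B they ran from -0.63 in STMN1 to -0.29 in SDF4, with a median of -0.53. In DD they ran from -0.75 in STX12 to -0.31 in LUZP1, with a median of -0.41. Of these genes, 12 were called lower for ZC3H7A against ZC3H7B, beside 20.4% of all tested genes. For DD against Parental, 12 of 12 were called lower, beside 14.8% of all tested genes. STMN1, the microtubule-destabilising protein stathmin, was at 10886, 11580.2 and 11469 in the controls, 10258, 10045 and 10108 with ZC3H7A, and 15486, 15901 and 15654 under ZC3H7B. It was at 12674, 13579 and 12829 in Parental and 10369.6, 10408 and 10117 in DD. Groups were separate in both experiments, with log2 differences of -0.16 ± 0.0357, 0.47 ± 0.0357 and -0.34 ± 0.0607 for ZC3H7A, ZC3H7B and DD against their references. CLSTN1, a transmembrane cargo-docking protein, was at 7741, 7671 and 7687 in the controls, 6169.8, 6184 and 5092 with ZC3H7A, and 8439.8, 8309.9 and 8039 under ZC3H7B. It was at 8910.2, 9509 and 9233 in Parental and 6238, 5979.8 and 5978 in DD, with DD below every library of Parental (-0.60 ± 0.0608). CLIC4, a chloride intracellular channel protein, had the lowest value of the list with ZC3H7A. It was at 7086, 7162 and 7155 in the controls, 2779.9, 2419 and 3195 with ZC3H7A, and 3884, 4036 and 4042 under ZC3H7B. Both overexpressions were far below the controls (-1.36 ± 0.0759 and -0.84 ± 0.0759), and the step from ZC3H7B to ZC3H7A, -0.52 ± 0.0759, was close to that of the other members. It was at 7214, 7070.4 and 5732 in Parental and 5154, 4843 and 5333 in DD. The actin-capping subunit CAPZB was at -0.50 and -0.43 for ZC3H7A against ZC3H7B and DD against Parental, the actin regulator WASF2 at -0.55 and -0.40, and the kinesin KIF1B at -0.43 and -0.40.

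The 10 genes of metabolism, proteases and organelles were all below 0 in DD, with a median of -0.48, and all below 0 for ZC3H7A against ZC3H7B, with a median of -0.48. Of these genes, 10 were called lower for ZC3H7A against ZC3H7B, beside 20.4% of all tested genes. For DD against Parental, 9 of 10 were called lower and 1 neither, beside 14.8% of all tested genes called lower. PGD, an enzyme of the pentose phosphate pathway, was at 6822, 6893 and 6949 in the controls, 8436, 8251 and 7398 with ZC3H7A, and 11561, 11617 and 10978 under ZC3H7B. It was at 7967, 8616 and 10185 in Parental and 6457, 6082 and 5485 in DD. PGD was higher than the controls in both overexpressions, less so with ZC3H7A (0.22 ± 0.0489) than with ZC3H7B (0.72 ± 0.0489), and was lower in DD (-0.57 ± 0.0928). ACOT7, an acyl-CoA thioesterase, showed the same order at 2959, 3066 and 3063 in the controls, 4584, 4208 and 3835 with ZC3H7A, and 5405, 5287 and 4964 under ZC3H7B. It was at 3968, 4383 and 4562 in Parental and 3668, 3736 and 3739 in DD, a small difference of -0.21 ± 0.0689. ICMT, which methylates prenylated proteins, was at 10186, 10260.2 and 10179 in the controls, 7715, 7956 and 7158 with ZC3H7A, and 11276, 11142 and 10944 under ZC3H7B. It was at 9150.0, 9141 and 9089 in Parental and 7482, 6797 and 7122 in DD. All ZC3H7A libraries were lower than the controls and all DD libraries lower than Parental (-0.43 ± 0.0415 and -0.36 ± 0.0620). The Parkinson's disease genes PARK7 and ATP13A2 were at -0.47 and -0.34 for ZC3H7A against ZC3H7B, and at -0.64 and -0.59 for DD against Parental.

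The ubiquitin enzymes ranged from -0.85 to -0.56 for ZC3H7A against ZC3H7B and from -0.65 to -0.30 in DD, all 4 below 0. Of these genes, 4 were called lower for ZC3H7A against ZC3H7B, beside 20.4% of all tested genes. For DD against Parental, 4 of 4 were called lower, beside 14.8% of all tested genes. USP48, a deubiquitinating enzyme, was at 4564, 4387 and 4458 in the controls, 1764, 1708 and 1995 with ZC3H7A, and 2981, 3382 and 3498 under ZC3H7B. It was at 1659, 1928 and 2035 in Parental and 1456, 1528 and 1536 in DD. The ZC3H7A libraries were the lowest of their experiment, and the second lowest difference of the list against the control was theirs (-1.30 ± 0.0672). Both genes of cell death were below 0: CASP9, the initiator caspase of the mitochondrial pathway, at -0.71 for ZC3H7A against ZC3H7B and -0.31 in DD (not called), and DFFA, which inhibits the apoptotic DNase, at -0.49 and -0.78. PITHD1 showed the lowest value of the list for ZC3H7A against ZC3H7B. It was at 2915, 2984 and 2935 in the controls, 1640.1, 1690.2 and 1626 with ZC3H7A, and 3668, 3658 and 3569 under ZC3H7B. Under depletion it was at 2152, 2022 and 2229 in Parental and 2291, 2085 and 1885 in DD, with overlapping libraries, and was not called (-0.04 ± 0.0828). RCC1, the nucleotide exchange factor of the GTPase Ran, was at -0.52 and -0.68.

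Part of the spread among members went with base content. Transcript A+T share, from the longest transcript of each gene, had a median of 49.1% in the listed genes and 51.5% over all tested genes with a value. Across 53 members without GMEB1, the log2 difference with ZC3H7A against the control had a Pearson correlation of -0.49 and a Spearman correlation of -0.53 with A+T share, and that with ZC3H7B -0.40 and -0.38. Over 14332 genes the Pearson values were -0.48 and -0.47, so the more A+T a transcript held, the lower it tended to be with each protein. These genes share libraries and are not independent points. Among the members the correlation was -0.33 for ZC3H7A against ZC3H7B and 0.26 for DD against Parental. With the trend in A+T share removed from each library, the median of the members was -0.41 for ZC3H7A against the control, 0.12 for ZC3H7B against the control, -0.53 for ZC3H7A against ZC3H7B and -0.44 for DD against Parental. For the other genes of the stretch these medians were -0.58, -0.06, -0.57 and -0.48. The ZC3H7B values thus lay nearer 0 and those of ZC3H7A against the control further below 0 than without this step. In all, the sign turned for 18 member values that were called with or without the step, each of them against the control and none for ZC3H7A against ZC3H7B or DD against Parental. Across the same 53 members, ZC3H7A against ZC3H7B and DD against Parental had a Pearson correlation of 0.05 and a Spearman correlation of 0.04.

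A few unlisted genes of the stretch departed further. MFAP2, a protein of elastic microfibrils, was at 321, 309 and 347 in the controls and 246, 258 and 237 with ZC3H7B, and at 0.641, 0 and 0 with ZC3H7A, where the 3 libraries together held 1 read. It was at 331, 313 and 318 in Parental and 0, 0 and 2.11 in DD, again with 1 read in all. As ratios of reads, MFAP2 was 1668-fold lower with ZC3H7A than in the controls (95% exact binomial interval 299 to 65923) and 457-fold lower in DD than in Parental (interval 81.6 to 18103), where the intervals cover counting error only. PADI2, which turns arginine into citrulline in proteins, was lower in both as well, with log2 differences of -1.48 ± 0.0709 for ZC3H7A against the control and -1.69 ± 0.127 in DD. IFI6, an interferon-induced gene, was at -1.72 ± 0.0631 and -1.32 ± 0.177. C1orf233 was at 0.13 ± 0.0728 and -2.11 ± 0.130, and whether the 2 differ was not tested. In the other direction against the control, VWA1, a matrix protein of cartilage, was at 1.17 ± 0.0792 with ZC3H7A and 0.28 ± 0.108 in DD, and it was at 1.30 ± 0.0792 against ZC3H7B too. RAP1GAP, which inactivates the GTPase Rap, was at 0.64 ± 0.0766 and 0.34 ± 0.136, but at -0.43 ± 0.0766 against ZC3H7B, where it was higher still (1.07 ± 0.0766 against the control). Of the rest named by size alone, EPHA8 (0.89 ± 0.0653) and GABRD (1.14 ± 0.0894) were higher and the pseudogene CROCCP3 (-1.70 ± 0.125) lower with ZC3H7A than in the controls. Against ZC3H7B these were at 0.14 ± 0.0653, -0.26 ± 0.0894 and -0.39 ± 0.125. In DD, ARHGEF16 was at 0.36 ± 0.159 and the pseudogene EIF1AXP1 at 0.32 ± 0.0768, and for ZC3H7A against ZC3H7B at -0.71 ± 0.0706 and 0.42 ± 0.201. Most unlisted genes went the common way. Of 191 unlisted genes averaging at least 100, 178 were below 0 for ZC3H7A against ZC3H7B and 181 for DD against Parental. Of all tested genes with such a mean, 46.1% and 46.4% were below 0.

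Across the genome, 299 runs of about 40 neighbours, taken from genes averaging at least 100, were compared by their medians. Of these, 5 lay wholly and 1 mostly within the stretch from NOC2L to GMEB1. The 6 runs had medians from -0.57 to -0.46 for ZC3H7A against ZC3H7B, ranking from 3 to 11 from the lowest, and from -0.59 to -0.40 for DD against Parental, ranking from 2 to 10. Of all runs, these 6 were the ones among the 11 lowest in both comparisons, a limit set after the ranks were seen. The stretch was not the lowest in either: the lowest run outside it had a median of -0.61 for ZC3H7A against ZC3H7B (UNG to PTPN11 on chromosome 12) and of -0.61 for DD against Parental (IKZF4 to MBD6 on chromosome 12). The run that crosses the edge, from MED18 to YARS, had medians of -0.0095 and 0.08. Against the control the 6 runs were less extreme, with medians from -0.52 to -0.21 with ZC3H7A, ranking from 15 to 92. There the lowest run outside the stretch was at -1.13 (CEP290 to ARL1 on chromosome 12). With ZC3H7B against the control the 6 runs were from -0.0012 to 0.33, ranking from 136 to 273.

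**Figure D5:**
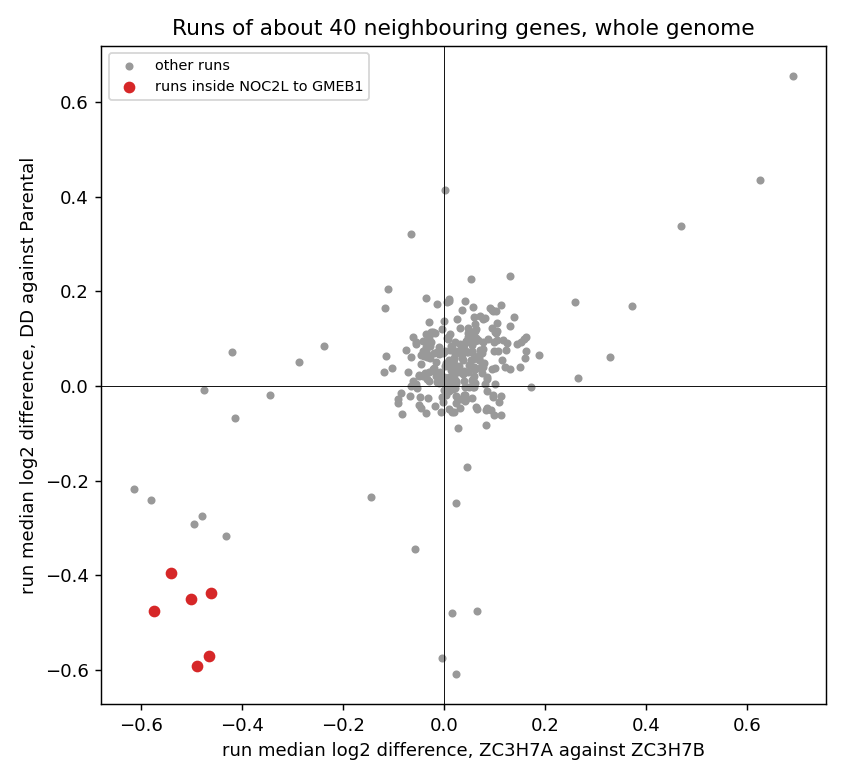
Each point is a run of about 40 neighbouring genes, with its median log2 difference for ZC3H7A against ZC3H7B across and for DD against Parental upward. The 6 red runs from NOC2L to GMEB1 lie in the lower left corner, and most other runs lie around 0.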

How the data were processed

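Gene-level values of 15 poly(A) RNA-seq libraries were used. Per the submitters' processing notes, the authors used STAR 2.7.10b, HTSeq and DESeq2 on hg19. The deposited signal values were counts divided by size factors: in every library 100% of them came out as whole reads (within 0.01 of a read) once multiplied back. On those reads edgeR called 7705 genes for ZC3H7A against ZC3H7B and 5479 for DD against Parental, beside 7832 and 5448 by limma. DESeq2 on the same reads called fewer, 7130 and 4469. The annotation used in counting and its strand setting are not given in the sources used here. Here limma 3.58.1 (R 4.3.3, with a trend in the prior variance) was run on log2(normalized count + 1), apart for the overexpression (9 libraries) and the depletion experiment (6 libraries), over genes with at least 10 in at least 3 libraries, with Benjamini-Hochberg adjustment over all tested genes and a threshold of 0.05. Gene order, type and transcript A+T share came from GENCODE 29 on GRCh38, matched by symbol or older symbol, with no match for 20542 names. Promoters came from RefSeq. Alternatives were edgeR 4.0.16 and DESeq2 1.42.0 on the recovered reads, a pseudocount of 5, no filter, 1 fit of all libraries, the A+T trend removed, a replicate block, and each library left out. The main limma fit alone was tested on simulated data, for ZC3H7A against the control and for DD against Parental. Far fewer genes were changed in that simulation than were called here. The members, role groups and lists were chosen with earlier results of these data known. Values in every library are given for the 8 members with the highest mean, the 3 highest and 3 lowest for ZC3H7A against the control and for DD against Parental, and MTOR, ARID1A and TARDBP, while those of 1 other member named by this rule are not reported here. TAF12, genes beyond GMEB1 and the ETS motif were chosen after their values or letters were seen. Roles were assigned by hand.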

Additional observations from a re-analysis of the deposited data

How the results depend on the processing

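For ZC3H7A against ZC3H7B and DD against Parental, no called value of a listed gene changed sign under any alternative run; of uncalled ones in DD, SRRM1 went to -0.03 without Parental replicate 1 and PITHD1 to 0.04 without DD replicate 3. The median of the listed genes for ZC3H7A against the control moved from -0.28 to -0.2474 with edgeR, -0.2251 with DESeq2 and -0.4095 with the A+T trend removed, and that of the other genes of the stretch to -0.2786 with DESeq2 and -0.5789 with the trend removed. For ZC3H7B against the control, the listed genes moved from 0.22 to 0.2839 (edgeR), 0.2771 (DESeq2) and 0.1227 (trend removed), and the others from 0.11 to 0.1692, 0.1624 and, reversed, -0.05885, or to 0.002677 with no filter on low values. With no filter, the others were at -0.408 for ZC3H7A against ZC3H7B. Listed genes called higher with ZC3H7A against the control numbered 3 instead of 8 with all 15 libraries in 1 fit, and those called lower with ZC3H7B 14 instead of 8 with the trend removed. Removing the trend turned the sign with ZC3H7A against the control for NOC2L (-0.1167), SKI (-0.2137), PANK4 (-0.1974), AHDC1 (-0.2365), RCC1 (-0.02383), TARDBP (0.1848), HNRNPR (0.3144), STMN1 (0.3797) and HMGN2 (0.1652), and with ZC3H7B for SDF4 (-0.1719), PEX10 (-0.1101), CLSTN1 (-0.1428), CTNNBIP1 (-0.1626), ATP13A2 (-0.04509), ECE1 (-0.01655), TARDBP (0.3869), HNRNPR (0.7628) and STX12 (0.02528); the alternative takes base content out by construction, and for the other settings the cause was not tested.

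Leaving out each library in turn, the median of the listed genes ranged from -0.3058 to -0.2725 for ZC3H7A against the control, from 0.21 to 0.2397 for ZC3H7B, from -0.5445 to -0.4946 for ZC3H7A against ZC3H7B and from -0.4643 to -0.4458 for DD against Parental. The other genes of the stretch ranged from 0.09584 to 0.1326 for ZC3H7B against the control. Listed genes called higher ranged from 4 to 8 for ZC3H7A against the control (4 without control replicate 3 or without ZC3H7A replicate 1) and from 1 to 2 for DD against Parental (2 without Parental replicate 3). The labels do not say whether replicate numbers pair the samples. The correlation of same-numbered deviations ran from -0.03 to 0.55 for overexpression, with 4 of 9 pairs best with their own number. For depletion it ran from -0.27 to -0.04, with 0 of 3. Between ZC3H7A and ZC3H7B, replicates 1 and 3 were best with their own number (0.34 and 0.55). Replicate 2 was not (0.03, beside 0.41 with another number). With the replicate number as a block, 8 listed genes were called higher and 39 lower for ZC3H7A against the control, and 43 lower for DD against Parental; over the 4 comparisons, 212 values of single listed genes kept their call, 2 lost it and 2 gained one.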
